A study of Homo sapiens with 6 samples.

Results

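The metallothioneins and 2 genes of zinc control were examined in human forebrain organoids exposed to the amyloid-β peptide Aβ42. The 8 genes were taken from the count table by symbol: MT1E, MT1F, MT1G, MT1X, MT2A, MT3, SLC30A1 and MTF1. All 8 were among the 18056 genes listed, and 7 had enough counts to be tested, MT1G being the exception. The organoids came from DYR0100, an induced pluripotent stem cell line with the genotype given as WT, through a dorsal forebrain protocol. A vehicle group and a group given 5 µM Aβ42 for 6 days had 3 libraries each, all in 1 batch, and every library is from this single line. The labels call the replicates independent, but they do not say whether each is 1 organoid, a pool or a separate differentiation.

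Metallothioneins are small proteins in which cysteines bind zinc and copper ions, so they buffer free metal in the cytosol. MTF1 is the transcription factor that senses zinc and binds metal response elements in the promoters of the metallothionein genes and of SLC30A1, whose product (ZnT1) exports zinc across the plasma membrane. In the brain MT2A and the MT1 forms are typical of astrocytes and are inducible by metals and glucocorticoids, while MT3 is the neural form and responds little to metals. Zinc is also stored in synaptic vesicles and binds amyloid-β.

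The 6 metallothionein members lie within chr16:56589074-56684196 (GENCODE 29, GRCh38, the build named in the submitters' processing notes), a stretch of 95.1 kb. SLC30A1 lies at chr1:211571568-211578742 and MTF1 at chr1:37809567-37859620, both on the minus strand. The coding sequences of MT2A and MT1X are shown from GENCODE 29 because their likeness bears on how reads can be assigned, with the in-frame cysteine codons (TGC or TGT) in capitals.
MT2A: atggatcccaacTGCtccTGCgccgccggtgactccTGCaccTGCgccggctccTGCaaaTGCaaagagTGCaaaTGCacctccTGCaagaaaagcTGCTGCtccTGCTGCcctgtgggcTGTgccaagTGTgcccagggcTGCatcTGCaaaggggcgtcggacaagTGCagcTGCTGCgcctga
MT1X: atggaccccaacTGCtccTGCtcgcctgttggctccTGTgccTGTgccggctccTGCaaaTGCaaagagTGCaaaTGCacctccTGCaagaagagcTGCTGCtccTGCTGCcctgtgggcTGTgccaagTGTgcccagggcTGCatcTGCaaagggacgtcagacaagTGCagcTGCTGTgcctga
Each of these holds 20 cysteine codons out of 61 codons before the stop (32.8%). Over the coding sequence MT2A and MT1X were 93.0% identical. Among MT2A and the 4 MT1 members, pairs ran from 88.7% (MT1F and MT1X) to 95.2% (MT1G and MT2A). Over the whole transcript, 45.1% of the 50-base windows of MT1X and 20.2% of those of MT1G also occur in a transcript of another gene, mostly family members and their pseudogenes. This share was 5.34% for MT1E, 4.88% for MT2A, 3.59% for MT1F, 0.644% for MTF1 and 0 for MT3 and SLC30A1. Values of MT1X and MT1G are therefore the least certain, since reads from shared stretches could have been divided or dropped. The deposited counts of all 6 metallothioneins and of SLC30A1 were whole in every library, and MTF1 had 1 that was not, in vehicle replicate 3.

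Promoters of 4 of the 8 genes were matched in the RefSeq table (GRCh38.p14). The 250 bases before the start site are shown for MT2A, MT1X and SLC30A1, the members with a negative fitted difference among the 4 matched, with matches to the metal response element core (TGCACNC or TGCGCNC, on either strand) in capitals. They are written 5′ to 3′ on the strand of the gene. The windows are chr16:56608334-56608583 (plus strand) for MT2A, chr16:56682220-56682469 (plus) for MT1X and chr1:211579162-211579411 (minus) for SLC30A1.
MT2A: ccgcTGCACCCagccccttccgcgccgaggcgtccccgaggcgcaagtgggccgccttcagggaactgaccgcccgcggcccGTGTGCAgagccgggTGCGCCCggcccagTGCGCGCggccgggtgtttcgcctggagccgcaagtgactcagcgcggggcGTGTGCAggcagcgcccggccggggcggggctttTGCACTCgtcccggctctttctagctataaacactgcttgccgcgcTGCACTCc
MT1X: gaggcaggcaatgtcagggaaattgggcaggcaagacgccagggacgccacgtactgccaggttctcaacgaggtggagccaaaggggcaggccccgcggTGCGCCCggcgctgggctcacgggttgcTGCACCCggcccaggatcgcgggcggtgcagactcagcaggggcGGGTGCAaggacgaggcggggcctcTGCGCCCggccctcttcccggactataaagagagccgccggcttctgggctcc
SLC30A1: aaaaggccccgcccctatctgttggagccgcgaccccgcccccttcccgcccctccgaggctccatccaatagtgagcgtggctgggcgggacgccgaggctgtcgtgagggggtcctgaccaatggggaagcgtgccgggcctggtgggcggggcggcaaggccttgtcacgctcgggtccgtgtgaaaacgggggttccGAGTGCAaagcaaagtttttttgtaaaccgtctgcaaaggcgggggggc
The core occurred 7 times before MT2A, 4 times before MT1X, 1 time before SLC30A1 and not in the window of MTF1. None of these matches overlapped another. Of 35116 promoter windows of this length, 24.8% held at least 1 match, 0.370% at least 4 and 0.0313% at least 7. Outside the 8 genes, the window of MT1H held 8 matches, although MT1H had 1 count over all 6 libraries. A match is a string of letters, not a measured binding site, and these data hold no measure of MTF1 binding.

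Forebrain identity was checked first. PAX6, a factor of cortical progenitors, was at 105.0 to 118.0 TPM in vehicle and 104.2 to 111.2 TPM with Aβ42 (TPM, a transcript level that the authors scaled for gene length and library size). The dorsal forebrain factor EMX1 was at 23.1 to 26.2 TPM and 21.9 to 26.0 TPM. TBR1, a factor of deep-layer cortical neurons, was at 152.0 to 162.5 TPM and 131.6 to 138.8 TPM. All 11 listed forebrain genes, these included, summed to 2174 to 2251 TPM in vehicle and 1995 to 2145 TPM with Aβ42, without overlap. Microglia markers summed to at most 1.21 TPM in any library, and C1QA, C1QB, TREM2 and TYROBP had 0 counts in all 6. Total estimated counts were 16465390 to 16742958 per library. Aβ42 replicate 2 stood apart from its group: by a chi-square statistic per gene it differed from Aβ42 replicates 1 and 3 by 9.40 and 8.49, and from vehicle replicates 1 to 3 by 3.16, 7.71 and 4.58. Leaving out Aβ42 replicate 2 moved the number of genes called from 0 to 3224, and leaving out any other library left it at 0. Values without Aβ42 replicate 2 are therefore given where they change the call of a member, and for some other genes.

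The zinc exporter SLC30A1 (Entrez gene ID 7779) was the member with the most firmly measured difference. Its level was 35.0, 40.0 and 35.3 TPM in vehicle replicates 1 to 3 and 27.6, 29.7 and 23.9 TPM in Aβ42 replicates 1 to 3. Every Aβ42 library lay below every vehicle library, from 961 to 1172 counts against 1335 to 1497, as was so in CPM for 13.4% of all genes tested. In CPM (counts scaled to library size by edgeR's TMM method) the means ± SD of 3 libraries were 84.7 ± 5.50 for vehicle and 64.1 ± 6.03 for Aβ42, which is 24.3% lower. The log2 fold change was -0.40 with a standard error (SE) of 0.07 and a 95% interval from -0.57 to -0.24; values after ± beside a log2 fold change are SEs from here on. In edgeR's quasi-likelihood test over 13842 genes its adjusted p-value was 0.0684, which misses the threshold of 0.05, as did every other gene (0% called). It ranked 35th of the 13842 by p-value. With the replicate number as a block, a pairing that the labels do not state, SLC30A1 fell by 0.40 on the log2 scale. Its adjusted p-value was 0.000397, in a fit that called 7.05% of all genes as lower. Leaving out Aβ42 replicate 2 gave SLC30A1 an adjusted p-value of 0.000968, beside 11.6% of genes called as lower. Leaving out Aβ42 replicate 3 instead gave 0.296 and a log2 fold change of -0.33.

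MTF1 (4520), the zinc sensor itself, had the smallest SE of the 7 tested genes and a small positive fitted difference. Its level was 10.7, 10.8 and 10.5 TPM in vehicle and 11, 11.8 and 10.8 TPM with Aβ42, where the lowest Aβ42 value lay just under the highest vehicle value. In CPM the groups did not overlap, at 32.8 ± 0.574 and 35.5 ± 1.42, a log2 fold change of 0.12 ± 0.06 (95% interval -0.02 to 0.26, edgeR adjusted p-value 0.281, and 0.273 with the block). MTF1 and its known target SLC30A1 thus had fitted differences of opposite sign, and MTF1 passed in 0 of 21 alternatives.

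**Figure D1:**
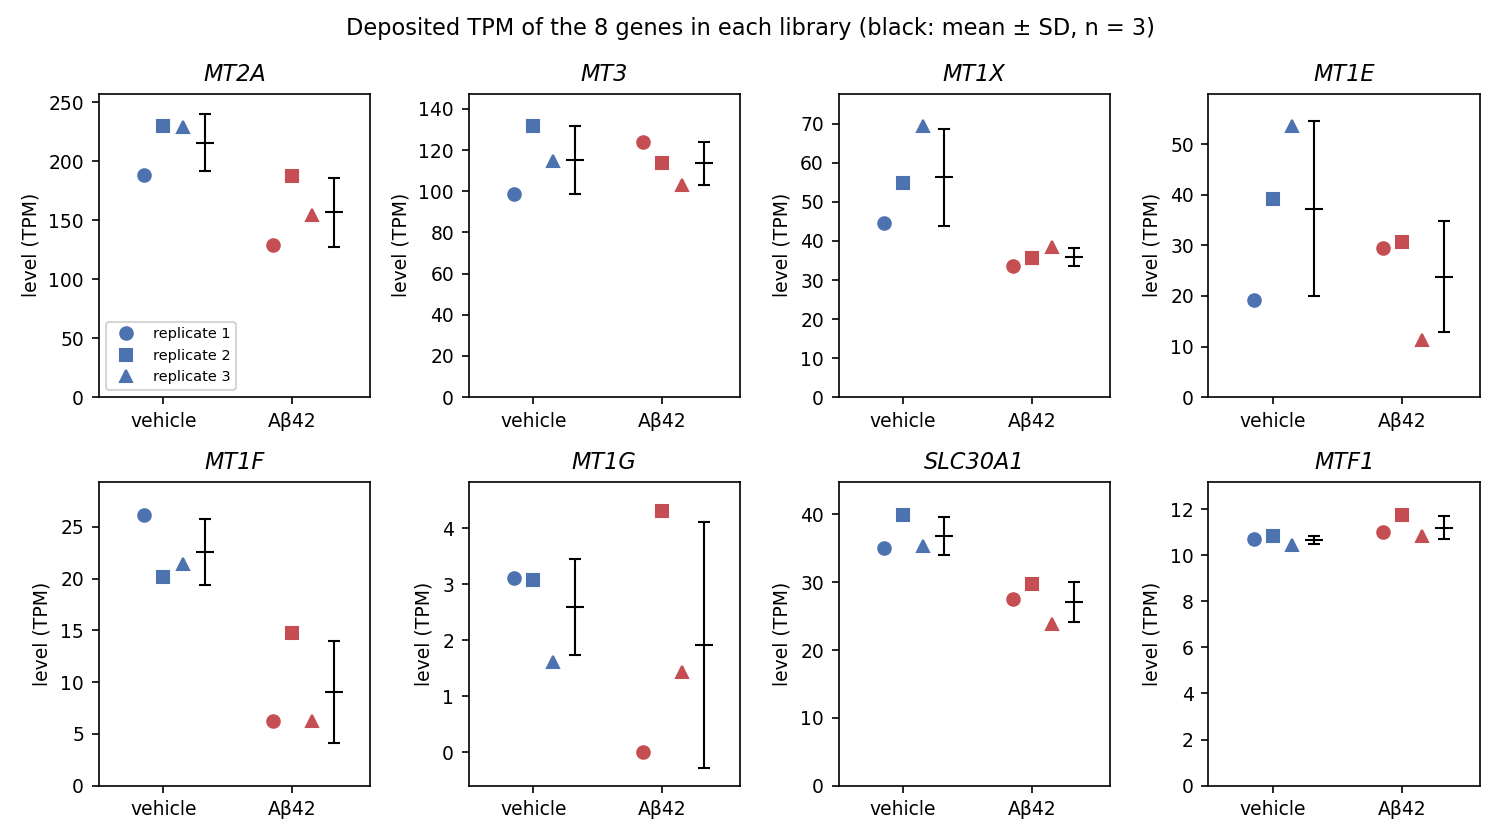
Deposited TPM (vertical axis, linear, a separate scale for each gene) of the 8 genes in the vehicle (blue) and Aβ42 (red) libraries, with marker shapes for replicates 1 to 3 and the mean ± SD of 3 libraries in black. The Aβ42 libraries lie below all vehicle libraries for MT2A, MT1X, MT1F and SLC30A1, as is so in TPM for 18.6% of all genes tested, while MT3 overlaps at 98.7 to 131.7 TPM in vehicle and 102.9 to 123.8 TPM with Aβ42.

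MT2A (4502), the broadly expressed metal-inducible form, had the highest mean TPM of the metallothioneins. Its level was 188.1, 230.0 and 229.5 TPM in vehicle and 129.0, 187.4 and 154.3 TPM with Aβ42. All 3 Aβ42 values were lower, although Aβ42 replicate 2 (187.4) came within 1 TPM of vehicle replicate 1 (188.1), and in CPM these libraries crossed (7.30 against 6.91). From 115 to 139 counts in vehicle and 86 to 123 with Aβ42, counting error alone was 8.48% to 10.8% of a library's value. The log2 fold change was -0.33 ± 0.15 (95% interval -0.66 to 0.01, edgeR adjusted p-value 0.222). The block gave MT2A an adjusted p-value of 0.103. Dropping Aβ42 replicate 2 gave 0.0432 and a log2 fold change of -0.46, and dropping Aβ42 replicate 1 gave 0.514 and -0.22.

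MT1X (4501), an inducible MT1 form, was at 44.6, 54.9 and 69.4 TPM in vehicle and at 33.7, 35.7 and 38.3 TPM with Aβ42. The groups did not overlap in TPM or in CPM, and the vehicle libraries were the more spread. On 23 to 41 counts a library the log2 fold change was -0.51 ± 0.24 (95% interval -1.04 to 0.02, edgeR adjusted p-value 0.228 in the fit without a block, 0.18 with the block). Leaving out any 1 library kept it between -0.64 and -0.36, with a lowest adjusted p-value of 0.196.

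MT1F (4494) had the largest fitted difference on the fewest counts among the tested members. Its counts were 20, 15 and 15 in vehicle and 5, 12 and 5 with Aβ42, or 26.2, 20.1 and 21.4 TPM against 6.22, 14.8 and 6.22 TPM. The groups did not overlap, and Aβ42 replicate 2 lay nearest to vehicle. MT1F needed the vehicle libraries to pass the filter on low counts, since of the Aβ42 libraries only replicate 2 had enough counts. Selection of MT1F thus favoured a difference in this direction. Its log2 fold change was -1.18 ± 0.40 (95% interval -2.06 to -0.30, edgeR adjusted p-value 0.121), with 0.0593 under the block and 0.0151 without Aβ42 replicate 2, where the log2 fold change was -1.72.

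MT1E (4493) varied widely within each group. Its counts were 13, 23 and 30 in vehicle and 20, 22 and 8 with Aβ42, and its levels 19.2, 39.1 and 53.6 TPM against 29.5, 30.7 and 11.2 TPM. The groups overlapped in part: vehicle replicate 1 lay below 2 of the 3 Aβ42 libraries, vehicle replicates 2 and 3 above all of them. The log2 fold change was -0.41 ± 0.41 (95% interval -1.31 to 0.49, edgeR adjusted p-value 0.559). Dropping Aβ42 replicate 3 gave -0.08, and dropping vehicle replicate 3 gave -0.12.

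MT1G (4495) had 2, 2 and 1 counts in vehicle and 0, 3 and 1 with Aβ42. No library exceeded 3 counts, which is also what a count of 0 allows (0.178 to 0.183 CPM, counting error only), so no fold change is given. Of the metallothioneins outside the 8 genes, MT1H had 1 count in vehicle replicate 3 and 0 elsewhere, and MT1M had 0 counts in all 6 libraries. MT1A, MT1B, MT1L, MT1HL1 and MT4 were not found by symbol among the genes listed, so no level or limit is given for them.

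MT3 (4504), the neural metallothionein, was next to MT2A in mean TPM and had overlapping groups. Its level was 98.7, 131.7 and 114.8 TPM in vehicle and 123.8, 114.0 and 102.9 TPM with Aβ42. The highest and the lowest value were both in vehicle. Its log2 fold change was 0.12 ± 0.17 on counts (95% interval -0.26 to 0.49, edgeR adjusted p-value 0.704), and -0.01 on the log2(TPM + 1) scale, so its sign was not fixed by the data. An increase of up to 0.49 or a decrease of up to 0.26 on the log2 scale lies within its interval.

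Of the 7 tested members, 5 had a negative and 2 a positive fitted log2 fold change, with a median of -0.40 where the median of all genes tested was 0.00. Unadjusted p-values under 0.05 belonged to 2 members that were lower (SLC30A1 and MT1F) and 0 that were higher, where 11.5% of all genes were lower and 12.4% higher. The CPM values did not overlap for 3 members that were lower (SLC30A1, MT1X and MT1F) and 1 that was higher (MTF1), against 13.4% and 13.6% of all genes. MT1F counts in both, and its place was favoured by the filter. Other fits called SLC30A1 as lower with DESeq2 (3.03% of all genes), without a filter on low counts (0.984%) and, together with MT1F, in limma-voom with quality weights (9%). The block with a correction for gene length called SLC30A1, MT1F and MT2A (6.97%), as did the fit without Aβ42 replicate 2. A share of this size among 7 genes chosen with earlier results known is a description, not a test.

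**Figure D2:**
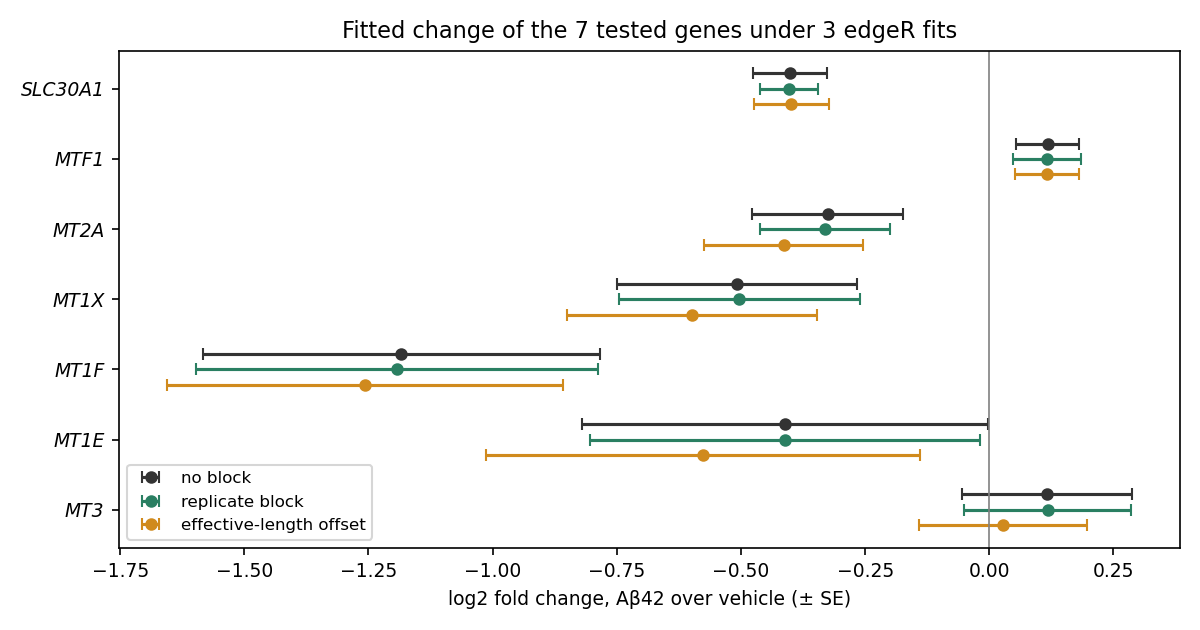
Log2 fold change of Aβ42 over vehicle (horizontal axis, ± SE) for the 7 tested genes in 3 edgeR fits, without a block (black), with the replicate number as a block (green) and with an offset for effective length (orange). SLC30A1 lies at -0.40 in all 3 fits, MT1F lies farthest from 0, and MT3 moves from 0.12 to 0.03 with the offset.

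Levels of the metallothioneins were compared with each other per length, in TPM. In vehicle the order was MT2A (215.9 ± 24.0 TPM), MT3 (115.1 ± 16.5), MT1X (56.3 ± 12.5), MT1E (37.3 ± 17.3), MT1F (22.6 ± 3.21) and MT1G (2.60 ± 0.855), n = 3 each. MT1X and MT1E overlapped, as did MT1E and MT1F, and the other neighbours did not. With Aβ42 the order was the same, at 156.9 ± 29.3, 113.6 ± 10.5, 35.9 ± 2.35, 23.8 ± 10.9, 9.06 ± 4.92 and 1.92 ± 2.19 TPM. There MT1E overlapped with MT1F, and the other neighbours were apart. This order, and the shares below, rest on the lengths that the authors divided by. By count per unit of TPM, MT2A and MT3 were 82.4 and 79.0 times shorter than MTF1. By their GENCODE 29 transcripts they were 10.1 and 14.0 times shorter. With other lengths the order of MT2A and MT3 could differ.

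The summed metallothionein level was 379.9, 478.8 and 490.3 TPM in vehicle and 322.1, 386.8 and 314.4 TPM with Aβ42 (means 449.7 ± 60.7 and 341.1 ± 39.8, n = 3 each). These sums overlapped, since Aβ42 replicate 2 lay above vehicle replicate 1. Without MT3 they were 281.2, 347.1 and 375.5 TPM against 198.3, 272.9 and 211.5 TPM, without overlap, but the counts behind them (178, 213 and 219 against 134, 184 and 142) overlapped. The log2 ratio of the group means of the full sum was -0.40 in TPM and -0.26 in CPM. MT3 made up 26.0%, 27.5% and 23.4% of the sum in vehicle and 38.4%, 29.5% and 32.7% with Aβ42, a higher share in each Aβ42 library than in any vehicle library. The ratio of MT3 to MT2A was 0.525, 0.573 and 0.50 in the vehicle libraries, below the 0.960, 0.608 and 0.667 of the Aβ42 libraries. Such a ratio does not show which of the 2 transcripts moved, and no test was run on sums, shares or ratios of the members. Whether MT2A and MT3 differed unequally was thus not tested. The intervals of their fitted log2 fold changes overlapped, from -0.66 to 0.01 for MT2A and from -0.26 to 0.49 for MT3.

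**Figure D3:**
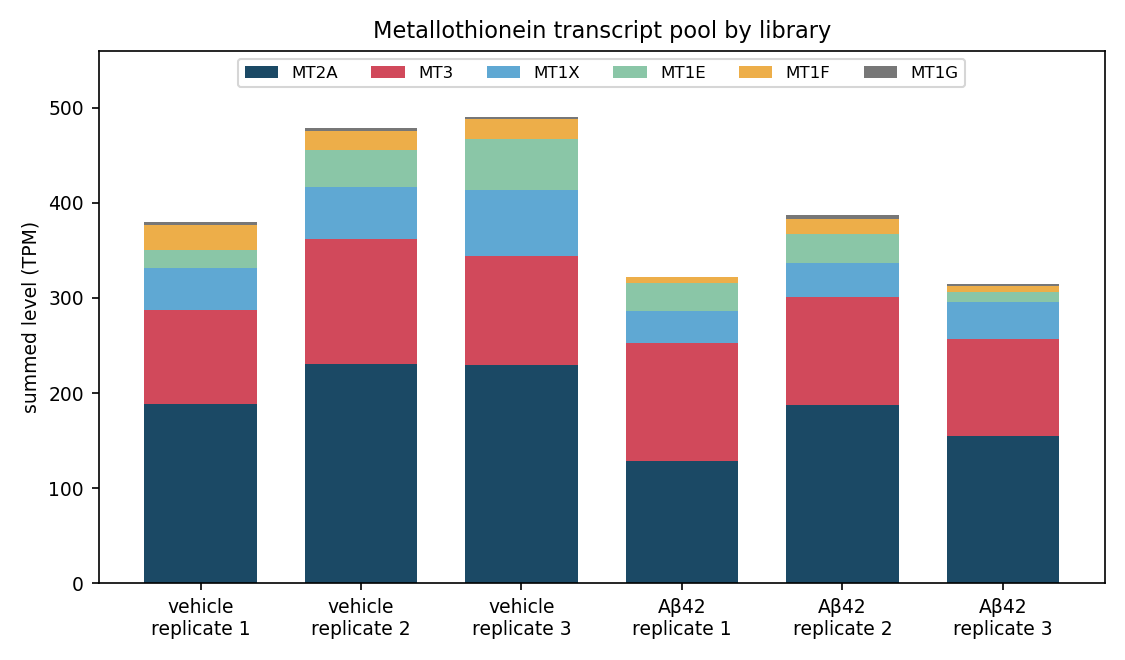
Stacked bars of the deposited TPM of 6 metallothioneins in each library, with the summed level on the vertical axis. The sum runs from 379.9 to 490.3 TPM in vehicle and from 314.4 to 386.8 TPM with Aβ42, and the MT3 part (red) is of similar height in all 6 bars.

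Metallothionein transcripts are short, and the length the authors divided by differed between libraries. The count per unit of TPM, which is proportional to that effective length, was for MT2A 0.971, 0.995 and 0.939 of its mean in vehicle and 1.062, 1.025 and 1.012 with Aβ42, after scaling on long genes. Every Aβ42 value was above every vehicle value. MT3 and MT1X had almost the same values, while SLC30A1 was at 1.0 in every library and MTF1 within 0.988 to 1.009. The log2 ratio of Aβ42 over vehicle in this count per TPM was 0.09 for MT2A, MT3 and MT1X, 0.15 for MT1E, 0.08 for MT1F and 0.04 for MT1G. Fold changes on counts thus lie above those on TPM, though not by exactly these amounts. In limma on log2(TPM + 1) the log2 fold changes were -0.47 for MT2A, -0.62 for MT1X, -1.32 for MT1F and -0.63 for MT1E. On that scale the median of all genes tested was -0.04. With this ratio as an offset in edgeR, a fit added after the data were seen, the log2 fold changes were -0.41 ± 0.16 for MT2A, -0.60 ± 0.25 for MT1X, -1.26 ± 0.40 for MT1F, -0.58 ± 0.44 for MT1E, 0.03 ± 0.17 for MT3 and -0.40 ± 0.08 for SLC30A1. The adjusted p-values of these 6 genes were 0.164, 0.19, 0.116, 0.449, 0.939 and 0.0684, and no gene of the table passed. With the block and the offset together SLC30A1 passed (0.00137), and MT1F (0.0579) and MT2A (0.0596) did not, in a fit that called 5.98% of all genes as lower. Effective length also limits comparisons between the metallothioneins and long genes: by count per TPM MT2A was 82.4 times shorter than MTF1, and by its GENCODE 29 transcript 10.1 times, so the TPM of metallothioneins and of MTF1 or SLC30A1 are not set against each other.

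**Figure D4:**
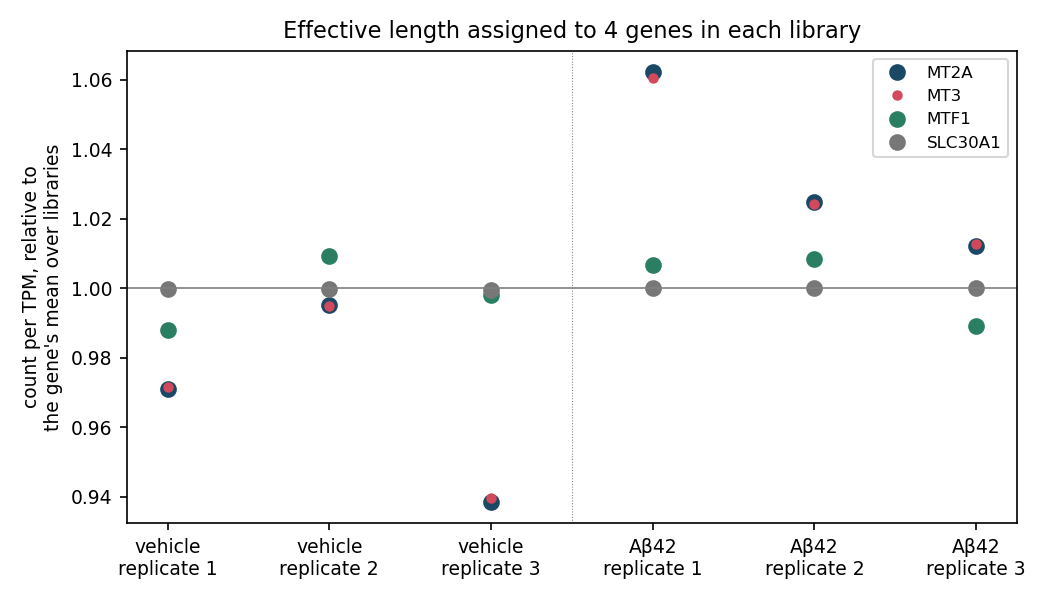
Count per TPM of 4 genes in each library relative to the gene's mean over the 6 libraries (vertical axis), which follows the effective length used to compute TPM. MT2A and MT3 lie at 0.939 to 0.995 in the vehicle libraries and at 1.012 to 1.062 in the Aβ42 libraries, while SLC30A1 stays at 1.0.

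The other zinc exporters of the SLC30 family had fitted differences between -0.11 and 0.26. Of the 9 listed, 7 were tested, 0 passed with or without the block, and the median log2 fold change was 0.00 (5 positive and 2 negative). SLC30A9 was the most abundant of the 9, at 107.3 TPM in vehicle and 108.3 TPM with Aβ42 (mean of 3), with a log2 fold change of 0.02 ± 0.05. Of these 7, the smallest p-values were those of SLC30A3 (0.26 ± 0.27), SLC30A7 (0.08 ± 0.08) and SLC30A5 (-0.05 ± 0.06), with edgeR adjusted p-values of 0.579, 0.585 and 0.65. SLC30A3, which loads zinc into synaptic vesicles, was at 1.41 TPM in vehicle and 1.70 TPM with Aβ42. SLC30A5 and SLC30A7 carry zinc into the secretory pathway. Their 95% intervals were -0.17 to 0.08 and -0.10 to 0.25, neither of which reaches the -0.40 of SLC30A1. That of SLC30A10, a manganese and zinc exporter (-0.11 ± 0.16), ran from -0.46 to 0.24 and does reach it. Differences between exporters were not tested.

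Among the zinc importers of the SLC39 family, 11 of 14 were tested and 0 passed, with a median log2 fold change of 0.01 (6 positive and 5 negative). SLC39A8, which brings zinc and manganese into cells, was at 2.27, 2.20 and 2.49 TPM in vehicle and 3.08, 3.11 and 3.54 TPM with Aβ42. All 3 Aβ42 libraries were higher, with a log2 fold change of 0.55 ± 0.18 (edgeR adjusted p-value 0.118, and 0.0638 with the block). SLC39A14, a related importer of zinc, iron and manganese, had a log2 fold change of 0.16 ± 0.07 (0.2). SLC39A6, the most abundant importer at 182.9 and 166.4 TPM, had one of -0.09 ± 0.05 (0.271). CPM did not overlap between groups for 2 importers that were higher (SLC39A8 and SLC39A14) and 2 that were lower (SLC39A6 and SLC39A3), where 13.6% and 13.4% of all genes were so. Only SLC39A8 and SLC39A14 among the 11 had an unadjusted p-value under 0.05.

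**Figure D5:**
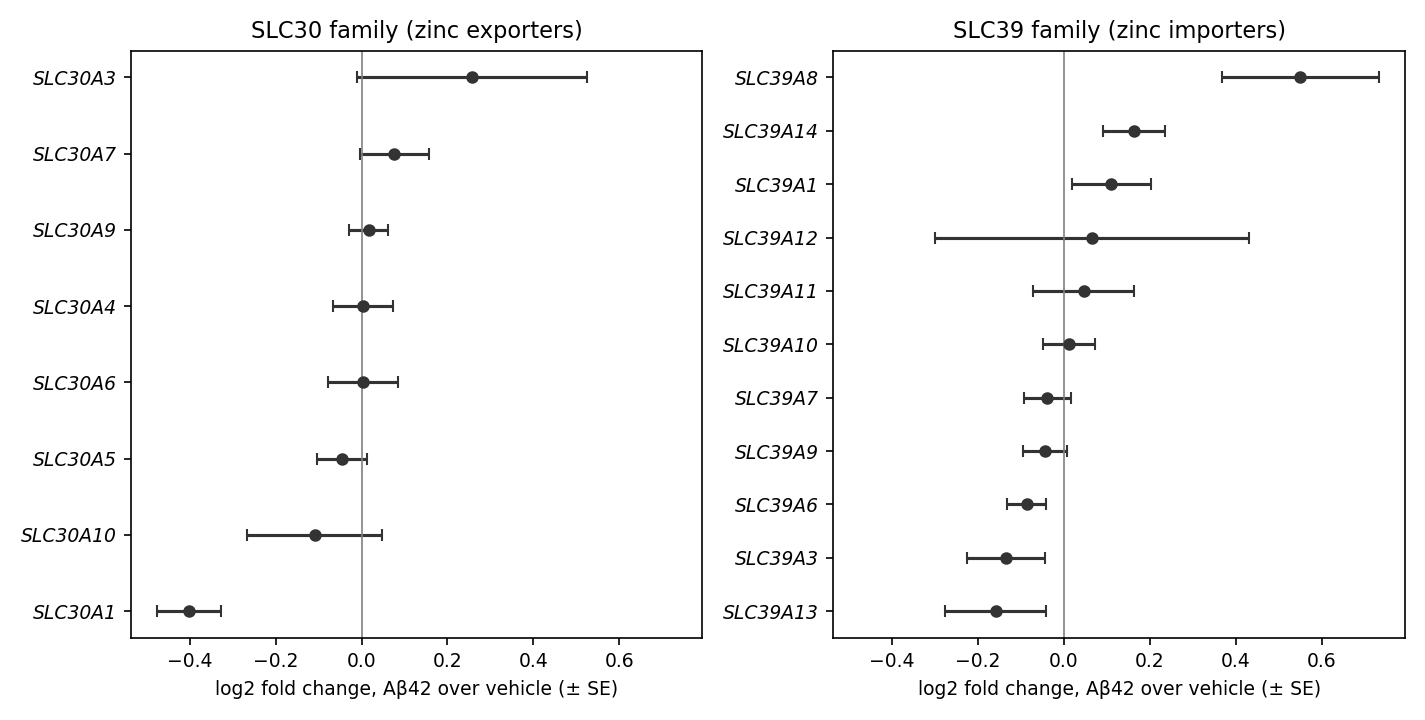
Log2 fold change of Aβ42 over vehicle (horizontal axis, ± SE, fit without a block) for the tested zinc exporters, SLC30A1 included, and the tested zinc importers. SLC30A1 lies at -0.40, apart from the other exporters at -0.11 to 0.26, and SLC39A8 at 0.55 is the highest importer.

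Other metal-responsive genes did not move one way. Of 12 tested, 6 were positive and 6 negative, with a median log2 fold change of 0.00, and 0 passed without the block. With the block 3 passed as higher and 3 as lower, where 7.12% and 7.05% of all genes did. SQSTM1, the autophagy receptor p62, was called as higher with the block (log2 fold change 0.26 ± 0.06 without the block, edgeR adjusted p-value 0.00859 with it). So were the chaperone partner BAG3 (0.25 ± 0.09, 0.024) and the heat shock gene HSPA1B (0.28 ± 0.15, 0.0117), whose near-identical copy HSPA1A could share its reads. SLC7A11, the cystine importer, was called as lower with the block (-0.34 ± 0.19 without it, edgeR adjusted p-value 0.00416 with it). So were NQO1 (-0.27 ± 0.20, 0.0122) and GCLM (-0.23 ± 0.08, 0.0335), a subunit of the enzyme that starts glutathione synthesis. For HSPA1B, SLC7A11 and NQO1 the groups overlapped in CPM and in TPM. Without the block their edgeR adjusted p-values were 0.302, 0.332 and 0.45. Leaving out Aβ42 replicate 2, without the block, gave 0.00473 for SQSTM1, 0.00895 for BAG3 and 0.00104 for HSPA1B. It gave 0.00288 for SLC7A11, 0.00748 for GCLM and 0.184 for NQO1. That fit called 1607 genes as higher and 1617 as lower among 13960. HMOX1, which heavy metals and heme induce, was at 9.05 TPM in vehicle and 8.17 TPM with Aβ42 (-0.10 ± 0.21, 0.801 without the block).

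Copper handling genes gave 0 calls with or without the block among 14 tested, with a median log2 fold change of -0.03 (4 positive and 10 negative). The smallest p-values were those of CP, SLC31A2 and COX17. CP, the copper oxidase ceruloplasmin, was at 13.9, 14.3 and 4.47 TPM in vehicle and 1.66, 6.78 and 2.27 TPM with Aβ42, so that the groups overlapped (log2 fold change -1.62 ± 0.76, edgeR adjusted p-value 0.279). SLC31A2 had a log2 fold change of -0.54 ± 0.34 (0.358) and COX17, a copper chaperone of mitochondria, one of 0.22 ± 0.16 (0.397). The main copper importer SLC31A1 (-0.01 ± 0.07) and the exporter ATP7A (0.05 ± 0.07) were near 0.

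Glucocorticoid-induced genes were listed because glucocorticoids also induce MT2A and MT1 genes. Of 11 tested, 7 were positive and 4 negative with a median log2 fold change of 0.04, and 0 passed without the block. Unadjusted edgeR p-values under 0.05 belonged to 4 that were higher and 0 that were lower, against 12.4% and 11.5% of all genes. The CPM values did not overlap for 4 that were higher and 0 that were lower, against 13.6% and 13.4%. With the block 3 were called as higher and 0 as lower, where 7.12% and 7.05% of all genes were. These were HIF3A (0.62 ± 0.16 without the block, edgeR adjusted p-value 0.000129 with it), PER1 (0.48 ± 0.13, 0.00213) and ZBTB16 (0.66 ± 0.18, 0.0047). Leaving out Aβ42 replicate 2, without the block, gave edgeR adjusted p-values of 0.00593 for HIF3A, 0.000306 for PER1 and 0.000606 for ZBTB16. With all 6 libraries FKBP5 (-0.12 ± 0.12) and TSC22D3 (-0.10 ± 0.08), much used reporters of glucocorticoid action, were not called.

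Astrocyte markers did not all differ one way, and their summed levels overlapped between groups. The 10 tested astrocyte markers had a median log2 fold change of -0.41, with 8 negative and 2 positive, and their summed level was 724.1 to 840.2 TPM in vehicle and 579.8 to 743.5 TPM with Aβ42. None of them passed without the block, and with it, where 7.05% of all genes fell, 4 fell and 0 rose: S100B (-1.25 ± 0.35 without the block, edgeR adjusted p-value 0.000941 with it), GJA1 (-0.84 ± 0.49, 0.00053), SLC1A3 (-0.22 ± 0.09, 0.00919) and SPARCL1 (-0.91 ± 0.46, 0.0184). ALDH1L1, an enzyme of folate metabolism used as an astrocyte marker, was higher without overlap between groups (0.33 ± 0.12, 0.0823 with the block). Only 1 of the 10 was lower without overlap in CPM, where 13.4% of all genes were. GJB6 was at 0 counts in 5 of 6 libraries. The 7 outer radial glia markers had a median of -0.08 (5 negative; 1803 to 1965 TPM and 1596 to 1855 TPM), and 2 of them fell with the block. Choroid plexus markers, 7 of 8 negative with a median of -0.49, summed to 3363 to 7604 TPM and 2847 to 6683 TPM, and 3 of the 8 fell with the block. The 9 neuron markers summed to 3159 to 3324 TPM and 2941 to 3056 TPM without overlap, with a median of 0.04, and 3 of them fell with the block. The 11 forebrain identity genes had a median of -0.0008 (5 positive and 6 negative). With the block 2 of them fell and 0 rose. In CPM 3 of them were lower without overlap and 0 higher, where 13.4% and 13.6% of all genes were so. In whole organoids fewer cells of a type and less RNA per cell cannot be told apart, and the part of glia, neurons and choroid plexus cells in the metallothionein and SLC30A1 values was not tested.

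Across the 6 libraries, log2 CPM of SLC30A1 correlated with that of MT1F (Pearson's r 0.88), MT2A (0.79), MT1X (0.69) and MT1E (0.60), and not with that of MT3 (-0.07). MT2A and MT3 had an r of -0.19. These are descriptions over 6 points that share the group difference and the library. Among 10287 other genes with a mean of at least 10 CPM, those most like SLC30A1 were STK36 (r 0.999), TANC2 (0.998) and CHM (0.997), and 277 genes exceeded an r of 0.95. For MT2A they were DUSP11 (0.994), PSEN2 (0.992) and VPS45 (0.992), with 231 genes above 0.95. MT3 was most like FANCF (0.986), BMP2K (0.979) and DCUN1D2 (0.958), and 5 genes exceeded 0.95. For MT1X the nearest were UBE2D1 (0.995), C1orf50 (0.993) and CAMSAP1 (0.988), for MT1F UTP14A (0.993), ITPRIP (0.993) and DENND11 (0.993), for MT1E ATM (0.998), RAB30 (0.985) and RAD18 (0.985), and for MTF1 NAT9 (0.968), USP5 (0.965) and RRAGC (0.964).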

How the data were processed

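Polyadenylated RNA of 3 vehicle and 3 Aβ42 libraries was sequenced after stranded library preparation with PCR amplification, per the labels' protocols. Per the file headers, the authors deposited read counts and TPM for every gene in each library. Per the submitters' processing notes FastQC, STAR 2.7.11b and featureCounts 2.0.6 were used with GRCh38, with no roles given. The annotation and the strand setting are not given in the sources used here. As 86.9% to 87.5% of the deposited count values of a library were whole, the table was handled as estimated counts (a read can be split between genes) and rounded.

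Genes were kept by filterByExpr (13842 of 18056), scaled by TMM and compared with edgeR 4.0.16 (quasi-likelihood test, robust dispersion, no block, R 4.3.3). All tests were two-sided, with Benjamini-Hochberg adjustment over all genes tested and a threshold of 0.05. SEs were derived from the log2 fold change and its F statistic. Alternatives used limma 3.58.1 and DESeq2 1.42.0. The script was tested on simulated data. The members, lists and alternatives were chosen with earlier results of these data known. Named were all members, in each list the 3 genes lowest in p-value, any list gene past the threshold with or without the block, and the 3 genes most correlated with each member. GJA1, S100B, SLC1A3 and SPARCL1, FKBP5, TSC22D3, HMOX1, SLC30A9, SLC31A1 and ATP7A, EMX1, PAX6, TBR1, ALDH1L1, SLC30A10 and SLC39A3 were named after their values were seen.

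No molecular identifiers are mentioned, and p-values measure the spread between these libraries, which may be technical. The chi-square statistic between libraries was 3.16 to 21.2 per gene, above the value of 1 from sampling alone, so all 6 libraries were used. The lowest value was that of Aβ42 replicate 2 against vehicle replicate 1, under the 3.30 to 6.02 of the vehicle pairs, while Aβ42 replicate 2 had 9.40 and 8.49 against the other Aβ42 libraries. Deviations from the group means, for the 12187 genes averaging 50 counts or more, had correlations of 0.198, 0.411 and 0.133 between same-numbered libraries. Each exceeds 0.1, so same-numbered libraries were treated as pairs in the fits with a block. This pairing comes from the data alone. Vehicle replicate 1 with Aβ42 replicate 3 (0.157) and vehicle replicate 3 with Aβ42 replicate 1 (0.208) also exceed 0.1. The values thus single out replicate 2 only, and do not settle how numbers 1 and 3 pair.

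Coding sequences are from GENCODE 29 and promoters from RefSeq (GRCh38.p14), whose start sites differ for some genes. The RefSeq window of MT2A lies inside its GENCODE 29 gene (chr16:56608199-56609497). That of SLC30A1 does not adjoin its GENCODE 29 gene (chr1:211571568-211578742). One coding sequence and one marker gene are not reported here.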

Additional observations from a re-analysis of the deposited data

How the results depend on the processing

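Without a block 0 genes and 0 of the 7 tested members passed in edgeR (3302 genes and 2 members at an unadjusted p-value under 0.05), and the same counts of 0 came from limma-voom, RLE and upper-quartile scaling, a filter at a mean of 10 counts, both TPM scales, non-robust dispersion, the length correction and the effective-length offset. Calls appeared, as genes and members, under no filter on low counts (360 and 1), DESeq2 (804 and 1), limma-voom with quality weights (2457 and 2), the replicate block (1962 and 1), the replicate block with the length correction (2009 and 3) and the replicate block with the effective-length offset (1687 and 1). Leaving out one library gave 0 to 3224 genes and 0 to 3 members, with calls only without Aβ42 replicate 2. SLC30A1 was called in 7 of 21 alternatives (log2 fold change -0.47 to -0.33), MT1F in 3 (-1.72 to -0.97) and MT2A in 2 (-0.47 to -0.22). The cause was not tested. DESeq2 gave no adjusted p-value for MT1E, MT1F and MT1X. With the replicate block and the length correction MT2A (0.0261) and MT1F (0.0434) passed beside SLC30A1. The block changed no call of another member or of an SLC30, SLC39 or copper gene.

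MT3 changed sign to -0.013 on log2(TPM + 1), -0.014 on log2(TPM + 0.1), -0.015 with the length correction, and -0.013 when that correction was combined with the replicate block. SLC30A7 ran from -0.0084 (without Aβ42 replicate 1) to 0.13 leaving out one library. Of 525 values of 25 named genes no other reversed. The summed metallothionein level had a log2 ratio of -0.40, with -0.26 in CPM and -0.51 to -0.33 leaving out one library. Spearman correlation could not rank the like genes, since over 6 libraries up to 132 genes tied at 1 with a member. The effective-length offset was added after the data were seen. At 5 to 41 counts a library for MT1E, MT1F and MT1X, depth limits what could be detected.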
